A study of Homo sapiens with 6 samples.

Results

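Oxidative phosphorylation subunit genes were compared in HuCCT1, an established cell line from a human bile duct cancer (cholangiocarcinoma). Their probes were chosen by gene symbol: NDUFA, NDUFB, NDUFC, NDUFS or NDUFV for complex I, SDHA to SDHD for complex II, UQCR for complex III, COX4 to COX8 for complex IV and ATP5 for complex V. The rule found 118 probes of 91 genes among 29285 probes with a processed value. Of these, 102 probes were detected (detection p under 0.05) on 3 or more of the 6 arrays, and they measured 81 of the 91 genes, out of 11586 genes tested in all. The 81 genes comprised 41 of complex I, 3 of complex II, 7 of complex III, 11 of complex IV and 19 of complex V. Among them 70 encode subunits, and the other 11 are 8 NDUFAF assembly factors, COX7A2L, which links complexes III and IV, the ATPase inhibitor ATP5IF1 and the pseudogene ATP5F1EP2. The genes were chosen with earlier results of these data known.

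Total RNA of mock HuCCT1 cells carrying an empty vector (3 arrays) and of HuCCT1 cells labelled as overexpressing WTAP (3 arrays) was read on Illumina bead arrays with 1 colour. WTAP is a subunit of the nuclear complex that writes N6-methyladenosine on RNA. Both groups were grown in RPMI1640 with serum, and the titles number the arrays 4, 5 and 6 in each. The labels do not give the promoter of the vector, whether a line is a clone or a pool, or whether the numbered samples are separate cultures, so the p-values rest on a spread between samples that may be technical only. Because only RNA of whole cultures was measured, fewer cells of a kind and less RNA per cell cannot be told apart.

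Oxidative phosphorylation is the last stage of respiration in the inner mitochondrial membrane. Complexes I and II pass electrons from NADH and succinate to coenzyme Q, complex III passes them on to cytochrome c and complex IV to oxygen, and complexes I, III and IV pump protons whose return through complex V, the ATP synthase, drives ATP formation. Nuclear genes encode all of complex II and most subunits of the others, while the catalytic cores of complexes I, III and IV are partly encoded in mitochondrial DNA, whose genes were not analysed here, nor were UQCRFS1 and SDHB. Bile duct epithelium uses this ATP for ion and bile acid transport, and carcinoma lines vary in how far they rely on it.

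The arrays were alike in depth, with a median signal of 191 to 203, 15071 to 16307 probes detected and 101 to 103 member probes detected on each. Log2 intensities across genes correlated at 0.988 to 0.993 within a group and at 0.967 to 0.976 between groups. All 8 bile duct and epithelial marker genes listed were detected on all 6 arrays, and of these MUC1 alone differed at an adjusted p under 0.05 (log2 fold change 1.75, labelled WTAP minus mock, adjusted p = 0.00544). Of 10 markers of other cell types, PTPRC, CD3E, COL3A1 and PDGFRB were detected on 0 arrays, PECAM1 and VWF on 1, APOA1 on 2, COL1A2 on 4, and the monocyte marker CD14 and the hepatocyte marker ALB on all 6. The 3 that were tested did not pass (log2 fold change -0.22 for CD14, 0.12 for COL1A2 and -0.39 for ALB), and their part in the results was not tested. Of 5 WTAP probes, 2 were detected on 3 or more arrays, and the brighter stood for the gene. Values of the other are not reported here. The brighter probe did not separate the groups: its normalized log2 intensity was 9.84 ± 0.06 (SD, n = 3) in mock and 9.90 ± 0.06 (SD, n = 3) in arrays labelled WTAP. Its log2 fold change was 0.06 ± 0.10 (SE, adjusted p = 0.703, 95% interval of the fold 0.889 to 1.23). The place of that probe on the transcript was not given in the sources used here, so each direction below rests on the labels, and the 2 groups are called mock and labelled WTAP.

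The respiratory chain genes moved little between the groups. Of the 81 members, 2 were higher in the arrays labelled WTAP (SDHA and COX5A) and 5 were lower (NDUFA9, NDUFB8, UQCR11, ATP5F1C and ATP5MK) at an adjusted p under 0.05, with limma and Benjamini-Hochberg adjustment over all 11586 genes. That is 8.64% of the members, against 20.4% of all genes tested (2366 genes, of which 1218, or 10.5%, were higher and 1148, or 9.91%, lower). For 22 members (27.2%) the values of the 2 groups did not overlap, against 39.7% of all genes. No member changed 2-fold, whereas 4.03% of all genes passed the threshold with a change of 2-fold or more. The median log2 fold change (labelled WTAP minus mock) of the members was -0.037, against 0.0030 for all genes, and the median size of the change was 0.11 against 0.22.

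**Figure D1:**
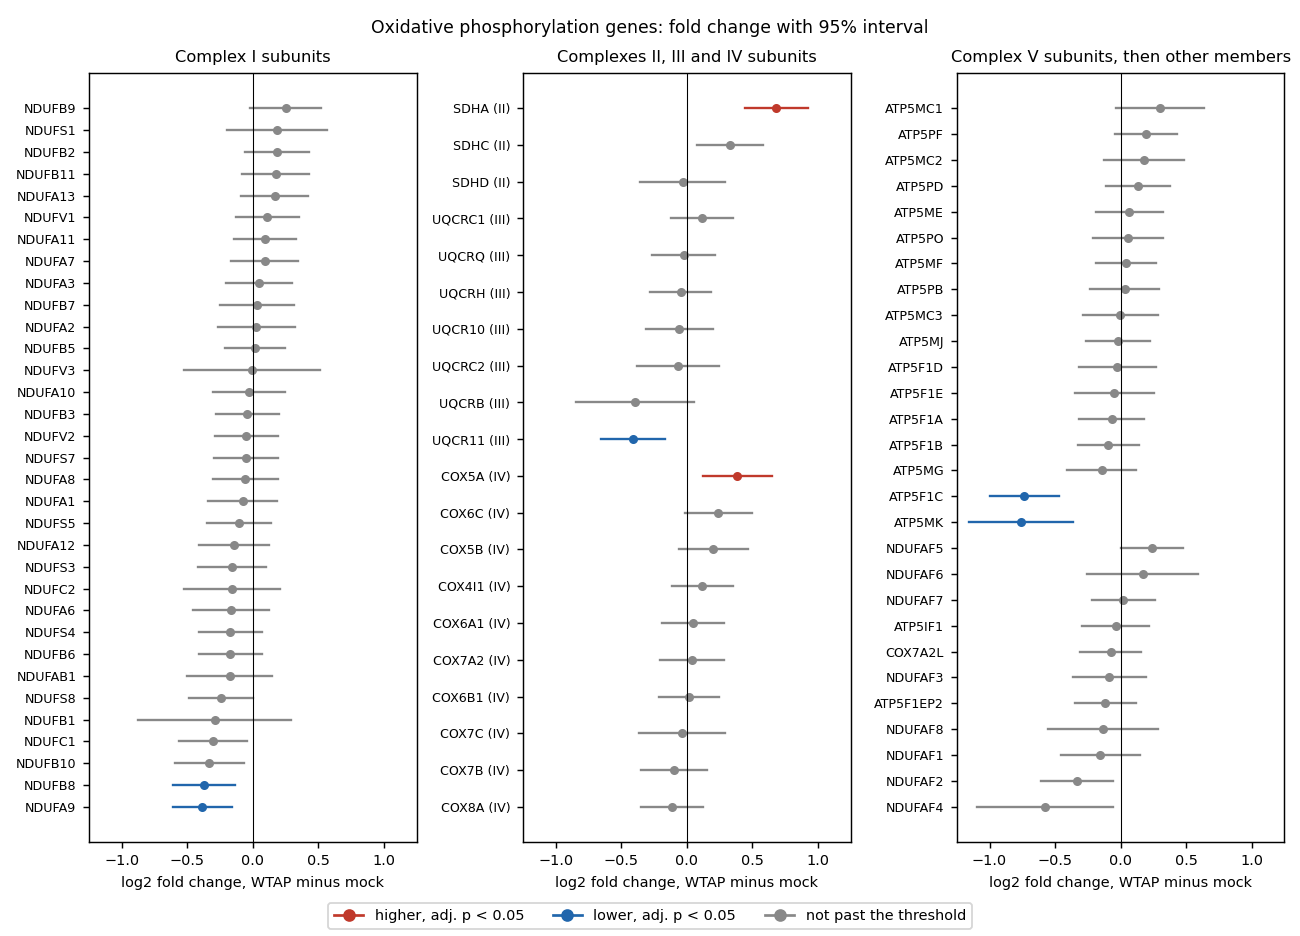
The log2 fold change (labelled WTAP minus mock, horizontal axis) of each of the 81 members is drawn as a point with its 95% interval, grouped by complex, with the 2 higher genes in red, the 5 lower genes in blue and the 74 others in grey. Most points sit near 0: 61 members lie within 0.2 of it, and the largest change is -0.76, of ATP5MK.

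Of the 74 members that did not pass, 66 had a 95% interval within 1.5-fold either way and 73 within 2-fold, so larger changes lie outside the intervals of nearly all of them. Their lowest adjusted p was 0.0665, of SDHC. An unadjusted p under 0.05 was found for 13 members. Members were bright: 63 of the 81 fell in the brightest quartile of all genes tested, where 5 of the 63 passed (7.94%) against 16.7% of all genes in that quartile. The median size of the log2 fold change over all genes of that quartile was 0.18, nearer to the 0.11 of the 81 members than the 0.22 of all genes. Member signals ran from 195.2 to 51210.2, below the highest signal of every array, the lowest of which was 63009. Whether the brightest signals were compressed was not tested.

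Complex I, the NADH dehydrogenase, held 33 tested subunits, of which 2 fell (6.06%) and none rose. Their median log2 fold change was -0.053, with 12 values above 0 and 21 below, from -0.39 to 0.25. NDUFA9, an accessory subunit at the junction of the matrix and membrane arms, had log2 intensities of 12.62, 12.62 and 12.55 in mock arrays 4, 5 and 6, and 12.19, 12.21 and 12.23 in arrays 4, 5 and 6 labelled WTAP. All 3 arrays labelled WTAP were below all 3 mock arrays, and the gene fell by 0.39 on the log2 scale (SE 0.10, adjusted p = 0.0278), to 0.765 of the mock level (95% interval 0.654 to 0.894). NDUFB8, an accessory subunit of the membrane arm often used as an antibody marker of the complex, read 13.70, 13.56 and 13.67 in mock and 13.20, 13.29 and 13.31 in arrays labelled WTAP. Its groups did not overlap either, and it fell by 0.38 (SE 0.10, adjusted p = 0.0366), to 0.771 of the mock level (0.654 to 0.908).

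Both complex I calls were near the threshold. Leaving out mock array 4, 5 or 6 raised the adjusted p of NDUFA9 to 0.0732, 0.0851 or 0.0524, and leaving out array 4 or 5 labelled WTAP to 0.0864 or 0.0703. For NDUFB8 the same omissions gave 0.0953, 0.0671 and 0.0930 for the mock arrays and 0.114 and 0.0828 for those labelled WTAP, and with the array number as a block its adjusted p was 0.0505.

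None of the 6 core subunits tested, which carry the flavin and the iron-sulfur clusters of the matrix arm, passed the threshold, and their median was -0.052. Among them NDUFS8, an iron-sulfur subunit, had the lowest value (-0.24 ± 0.11 SE, adjusted p = 0.149), with 14.10, 14.25 and 14.09 in mock and 13.86, 13.99 and 13.86 in arrays labelled WTAP. NDUFV1, which binds FMN and NADH, stood at 0.11 ± 0.10 (adjusted p = 0.498). Of the 27 accessory subunits, the highest value was that of NDUFB9, a membrane arm subunit of the LYR-motif family, at 0.25 ± 0.12 (adjusted p = 0.169). The lowest values after the called pair were those of the membrane arm subunits NDUFB10 (-0.33 ± 0.11, adjusted p = 0.0773) and NDUFC1 (-0.30 ± 0.11, adjusted p = 0.0956).

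The 8 NDUFAF assembly factors, which build complex I but are not part of it, had no member past the threshold and a median of -0.11. NDUFAF4, an early assembly factor, had the lowest value, -0.58 ± 0.23 (adjusted p = 0.110), from 7.81, 7.76 and 8.36 in mock and 7.25, 7.12 and 7.83 in arrays labelled WTAP. Array 6 was the highest of its group on both sides, so the groups overlapped, while each numbered array was lower than its mock counterpart. With the array number as a block its adjusted p was 0.0135, and without array 6 labelled WTAP it was 0.0316. NDUFAF2, a late assembly factor, stood at -0.33 ± 0.12 (adjusted p = 0.0855), and NDUFAF5, which hydroxylates an arginine of NDUFS7, at 0.24 ± 0.10 (adjusted p = 0.141).

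Complex II, succinate dehydrogenase, is shared by the respiratory chain and the tricarboxylic acid cycle, and 3 of its 4 subunit genes were tested. SDHA, the FAD-binding catalytic subunit, rose. It read 11.35, 11.27 and 11.18 in mock and 11.90, 11.95 and 12.01 in arrays labelled WTAP (means 11.27 ± 0.09 and 11.95 ± 0.05, SD, n = 3). The lowest array labelled WTAP was well above the highest mock array, with a log2 fold change of 0.68 ± 0.10 (SE, adjusted p = 0.00396), or 1.61-fold (95% interval 1.36 to 1.90). SDHA passed in 15 of 16 alternative analyses, all but the subtraction of neighbouring genes given further on (adjusted p = 0.0932). RefSeq names 4 pseudogenes for SDHA, and probes of such copies can cross-hybridise. Of the pseudogene probes tested, that of SDHAP2 was also higher (0.52 ± 0.15, adjusted p = 0.0424) and that of SDHAP3 stood at 0.07 ± 0.17 (adjusted p = 0.809).

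The membrane anchor SDHC read 10.50, 10.54 and 10.54 in mock and 10.92, 10.95 and 10.71 in arrays labelled WTAP. Its groups did not overlap, but its log2 fold change of 0.33 ± 0.11 (adjusted p = 0.0665) missed the threshold. Without array 6 labelled WTAP its adjusted p was 0.0388, and without background correction it was 0.0294. SDHD, the other anchor, read 11.24, 10.87 and 10.79 against 10.90, 11.02 and 10.88, which overlap (-0.03 ± 0.14, adjusted p = 0.900). Whether SDHA differs from its partners in response was not tested.

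The promoter of SDHA is shown because SDHA was the member with the lowest adjusted p, and because nuclear respiratory factor 1 (NRF1) and ETS-family factors such as GABP are known activators of respiratory chain genes. The 250 bases before the start of SDHA (RefSeq, GRCh38.p14, chr5:218070-218319, plus strand) are printed in lower case, with matches to the NRF1 motif (GCGCA, any base, then GCGC, on either strand) in capitals. The motif recurs 4 times at a spacing of 49 bases.
SDHA: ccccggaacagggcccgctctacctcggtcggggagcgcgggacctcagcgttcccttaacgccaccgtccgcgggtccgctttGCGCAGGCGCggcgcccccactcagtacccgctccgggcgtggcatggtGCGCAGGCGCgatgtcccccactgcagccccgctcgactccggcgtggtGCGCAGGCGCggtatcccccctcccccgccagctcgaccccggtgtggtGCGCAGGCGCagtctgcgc

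Complex III, the cytochrome bc1 complex, had 7 tested genes, of which 1 fell (14.3%), and 6 of the 7 values were below 0 (median -0.056). UQCR11, its smallest subunit, read 8.75, 8.90 and 8.74 in mock and 8.43, 8.31 and 8.42 in arrays labelled WTAP. The groups did not overlap, and UQCR11 fell by 0.41 (SE 0.11, adjusted p = 0.0300), to 0.753 of the mock level (95% interval 0.637 to 0.892). Its adjusted p rose to 0.0613, 0.104 and 0.0566 without mock array 4, 5 or 6, and to 0.0720 and 0.0877 without array 4 or 5 labelled WTAP.

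UQCRB, a small subunit near a quinone site, had nearly the same value, -0.40 ± 0.20, with an adjusted p of 0.191. Its mock arrays read 6.87, 6.84 and 6.13 and those labelled WTAP 6.29, 6.18 and 6.19, so mock array 6 alone lay below the other group; without it the adjusted p was 0.0164. The core protein UQCRC1 had the highest value of the complex (0.11 ± 0.10, adjusted p = 0.473). UQCRH, the hinge protein that binds cytochrome c1, stood at -0.05 ± 0.10 (adjusted p = 0.789).

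UQCR11 was the only subunit call that stayed past the threshold after the neighbouring genes were subtracted, and its promoter is shown for that reason (RefSeq, GRCh38.p14, chr19:1605463-1605712, minus strand, 250 bases before the start). Capitals mark 2 matches to the NRF1 motif next to the start, 2 to the ETS motif CCGGAAG and 3 to the GC box GGGCGG, each on either strand.
UQCR11: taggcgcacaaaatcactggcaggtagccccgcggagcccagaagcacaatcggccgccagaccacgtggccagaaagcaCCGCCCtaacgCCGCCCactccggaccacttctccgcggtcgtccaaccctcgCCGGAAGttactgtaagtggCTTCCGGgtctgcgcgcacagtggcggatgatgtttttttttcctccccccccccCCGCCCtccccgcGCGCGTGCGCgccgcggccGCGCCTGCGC

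Complex IV, cytochrome c oxidase, had 10 tested subunits, 1 of which rose (10%), and 7 of the 10 values were above 0 (median 0.046). COX5A, a subunit on the matrix side, read 13.89, 13.71 and 13.97 in mock and 14.31, 14.26 and 14.17 in arrays labelled WTAP. The groups did not overlap, and the gene rose by 0.39 ± 0.11 (SE, adjusted p = 0.0464), or 1.31-fold (95% interval 1.09 to 1.57). This call was the least stable of the 7 and passed in 6 of 16 alternatives. Its adjusted p was 0.0592 with the array number as a block, 0.0624 with median scaling, 0.066 without the filter on dim probes, 0.0879, 0.150 and 0.0584 without mock array 4, 5 or 6, and 0.132, 0.109 and 0.0531 without array 4, 5 or 6 labelled WTAP.

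The other complex IV subunits ranged from -0.11 ± 0.10 for COX8A (adjusted p = 0.485) to 0.24 ± 0.11 for COX6C (adjusted p = 0.161) and 0.20 ± 0.12 for the zinc-binding subunit COX5B (adjusted p = 0.254). Several subunits exist as tissue isoforms, and in each pair the probe of the ubiquitous or liver form was the one detected in HuCCT1 cells. COX4I1 (log2 intensity 14.39 in mock), COX6A1 (13.35), COX6B1 (14.06), COX7A2 (14.39), COX7B (13.09) and COX8A (15.37) were detected on all 6 arrays. The lung, muscle and testis forms COX4I2, COX6A2, COX6B2, COX7A1, COX7B2 and COX8C were detected on 0 arrays of either group. The probes of the complex I subunits NDUFB4 and NDUFS6 were also detected on 0 arrays, so absence of a form was not shown. The detected isoforms stood at 0.12 (COX4I1), 0.05 (COX6A1), 0.02 (COX6B1), 0.04 (COX7A2), -0.10 (COX7B) and -0.11 (COX8A), and none passed. NDUFA4, now named COXFA4 and outside the symbol rule, stood at -0.06 ± 0.11 (adjusted p = 0.712), and its isoform NDUFA4L2 was not analysed here.

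Complex V, the ATP synthase, had 17 tested subunits, of which 2 fell (11.8%) and none rose, with a median of -0.0010. ATP5F1C, the gamma subunit that forms the rotating shaft of the F1 motor, read 11.95, 11.80 and 11.79 in mock and 11.10, 10.99 and 11.24 in arrays labelled WTAP. The groups were far apart, and ATP5F1C fell by 0.73 (SE 0.11, adjusted p = 0.00437), to 0.601 of the mock level (95% interval 0.501 to 0.722). It passed in 15 of 16 alternatives, the exception being the subtraction of neighbouring genes. ATP5MK, also called DAPIT, a small membrane subunit known for its part in dimers of the enzyme, read 7.52, 7.59 and 7.93 in mock and 6.87, 6.66 and 7.22 in arrays labelled WTAP. It had the largest change of all members, a fall by 0.76 (SE 0.17, adjusted p = 0.0185), to 0.591 of the mock level (0.448 to 0.779). Its adjusted p was 0.0567 without mock array 6 and 0.0652 and 0.0554 without array 4 or 5 labelled WTAP, and without background correction it fell by 0.41.

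By place in the enzyme, the 5 F1 subunits were all below 0 with a median of -0.068, ATP5F1C being the one past the threshold. Of all 11586 genes, 5751 were below 0. Apart from ATP5F1C, the F1 values lay between -0.09 and -0.03, each smaller than its SE. A second detected probe of ATP5F1A stood at 0.02 ± 0.11, so the shared sign depends on the probe used. The catalytic beta subunit ATP5F1B stood at -0.09 ± 0.10 (adjusted p = 0.562). The 3 c-ring genes, whose mature proteins are alike, had a median of 0.18, with ATP5MC1 the highest of the complex at 0.30 ± 0.15 (adjusted p = 0.185). The 4 peripheral stalk subunits were all above 0 (median 0.094) and none passed, with ATP5PF, the F6 subunit, at 0.19 ± 0.10 (adjusted p = 0.225). The other 5 membrane subunits had a median of -0.018. ATP5IF1, which blocks ATP hydrolysis by the enzyme, stood at -0.04 ± 0.11 (adjusted p = 0.843) by its brighter probe. The other detected ATP5IF1 probe stood at -0.41 ± 0.14 (adjusted p = 0.0778 in the limma fit over all detected probes).

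The promoter of ATP5F1C is shown as that of the fall with the lowest adjusted p (RefSeq, GRCh38.p14, chr10:7787927-7788176, plus strand, 250 bases before the start). Capitals mark a GC box and a match to the NRF1 motif close to the start.
ATP5F1C: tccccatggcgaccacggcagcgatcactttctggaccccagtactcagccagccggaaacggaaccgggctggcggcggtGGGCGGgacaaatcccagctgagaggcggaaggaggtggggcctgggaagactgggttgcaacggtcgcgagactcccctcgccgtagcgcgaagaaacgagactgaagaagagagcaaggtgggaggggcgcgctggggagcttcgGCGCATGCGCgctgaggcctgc

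**Figure D2:**
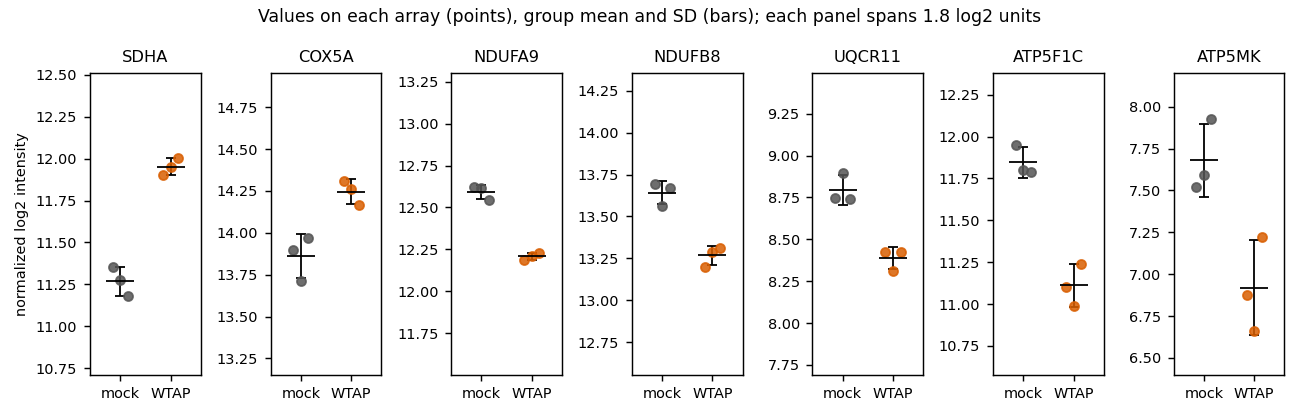
Each panel plots the normalized log2 intensity of 1 of the 7 called members on the 3 mock arrays and the 3 arrays labelled WTAP (points), with the group mean and SD (bars), on axes of equal length. No panel shows overlap, but the genes were picked on these same arrays, and 39.7% of all genes did not overlap either. The widest gaps between the nearest arrays of the groups are those of ATP5F1C and SDHA. Their mock and labelled WTAP means are 11.84 and 11.11, and 11.27 and 11.95, while the means of ATP5MK differ most.

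Of the 10 members that could not be tested, 9 were detected on 0 arrays (the 6 tissue isoforms, NDUFB4, NDUFS6 and the antisense RNA NDUFB2-AS1) and NDUFA5 on 1. More than 1 probe was detected for 18 members. Their probes differed by a median of 0.111 in log2 fold change, and in 7 members they differed in sign. None of the 18 was among the called members. Each called member had 1 probe on the array, so no call could be compared between probes. The largest difference was 0.367, between the probes of ATP5IF1. When every detected probe was tested on its own, 6 member probes passed, and COX5A did not (adjusted p = 0.0529), beside 19.1% of all detected probes. At least 1 pseudogene is named for 47 of the 81 members in RefSeq, and a probe may read such copies too.

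Promoters of 68 of the 81 members were found in the RefSeq table (GRCh38.p14), as 300 bases from 250 before to 50 after the start, and were searched on both strands. The NRF1 motif, spelled out above, lay in 15 of 68 (22.1%), against 11.7% of the promoters of all tested genes and 6.28% of all promoters. The ETS motif CCGGAAG lay in 20 (29.4%, against 19% and 10.7%), and the YY1 motif AAGATGGC in 10 (14.7%, against 5.37% and 3.03%). The GC box GGGCGG lay in 40 (58.8%), against 68.7% of the promoters of tested genes. By complex, the NRF1 motif lay in both complex II promoters found, in 3 of 6 of complex III, 4 of 13 of complex V, 5 of 29 of complex I and 0 of 9 of complex IV, where the ETS motif lay in 5 of 9. Of the 7 called members, 4 hold the NRF1 motif, 1 of them higher and 3 lower in arrays labelled WTAP. In the promoters printed above no match overlaps that of another motif. These counts describe letters and carry no test.

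Several calls lay where neighbouring genes had moved the same way. For each member, the median log2 fold change of up to 25 tested genes on either side on its chromosome was taken, with gene order from RefSeq. All 3 members on chromosome 10, NDUFB8, ATP5F1C and ATP5MK, were among the 5 that fell, and of the 419 genes tested on that chromosome 195 fell and 12 rose (median -0.45). Around ATP5F1C, 32 of 50 neighbours fell and 3 rose (median -0.67). Around NDUFB8, 25 of 50 fell and 1 rose (median -0.49), and around ATP5MK 23 of 50 fell and none rose (median -0.42).

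The other calls except that of UQCR11 had neighbours of the same sign too. SDHA, on chromosome 5, had 26 neighbours, of which 8 rose and none fell (median 0.38). COX5A, on chromosome 15, had 13 higher and 2 lower among 50 (median 0.26), and NDUFA9, on chromosome 12, had 10 lower and 1 higher among 44 (median -0.24). UQCR11, on chromosome 19, was lower among neighbours of which 6 of 50 rose and 1 fell (median 0.07). Across the 81 members, the fold change of a gene and the median of its neighbours correlated with Pearson 0.618 and Spearman 0.470. For the other 11466 genes the values were 0.353 and 0.352. Both are descriptions, since all genes were read from the same 6 arrays and neighbouring genes share their neighbours.

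**Figure D3:**
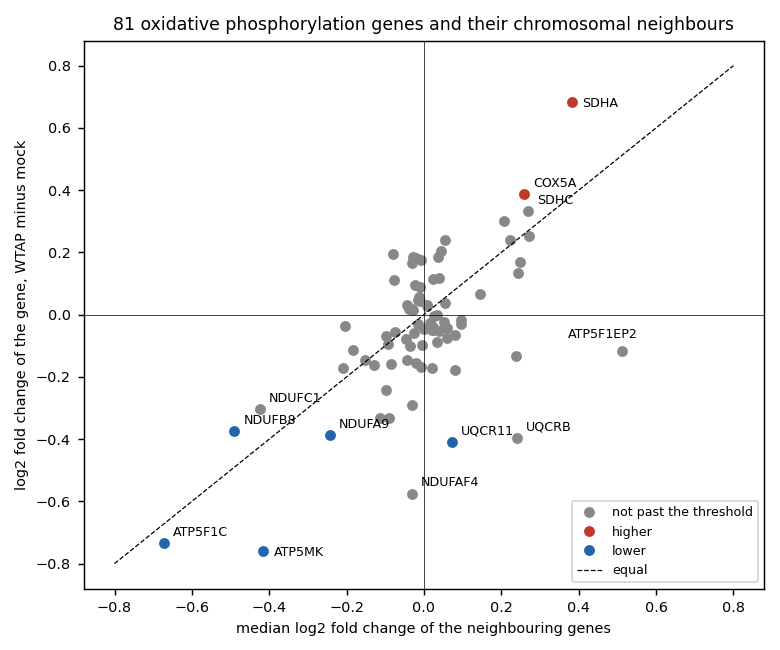
Each of the 81 members is placed by the median log2 fold change of its neighbouring genes (horizontal axis) and by its own log2 fold change (vertical axis), with higher members in red, lower in blue and a dashed line of equal values. ATP5F1C and NDUFB8 lie near that line on the lower left, and UQCR11 lies away from it, at -0.41 with neighbours at 0.07.

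The median log2 fold change of a gene's neighbours was then subtracted from its values on the arrays labelled WTAP, and the fit was repeated. Here 2 members passed (2.47%), against 14.2% of all genes in that analysis. The adjusted p-values of that fit leave out the error of the neighbour median itself. UQCR11 stood at -0.48 (adjusted p = 0.0219). The other was the pseudogene ATP5F1EP2 on chromosome 13, which went from -0.12 (adjusted p = 0.460) to -0.63 (adjusted p = 0.00634) among neighbours of which 26 rose and 3 fell (median 0.51). ATP5F1EP2 is a copy of ATP5F1E, which lies on chromosome 20 and stood at -0.05 ± 0.13, and its probe may read that gene. After subtraction SDHA stood at 0.30 (adjusted p = 0.0932), COX5A at 0.13 (0.493), NDUFA9 at -0.14 (0.367), NDUFB8 at 0.12 (0.496), ATP5F1C at -0.06 (0.754) and ATP5MK at -0.34 (0.228), with adjusted p in brackets. DNA copy number was not measured here, and the part of chromosome regions in these changes was not tested beyond this subtraction.

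**Figure D4:**
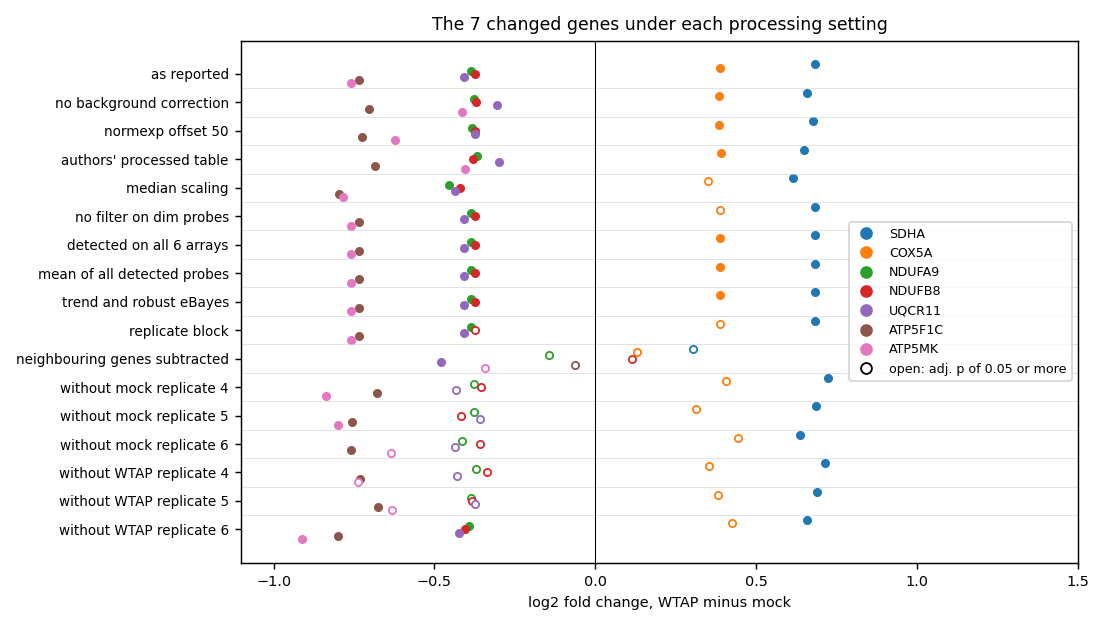
The log2 fold change of the 7 called members (colours) is plotted for the reported analysis and each of the 16 alternatives (vertical axis), with open points where the adjusted p was 0.05 or more. SDHA and ATP5F1C are filled in 15 of 16 alternatives, and NDUFB8 crosses 0 once, after subtraction of neighbouring genes.

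Genes that work beside the respiratory complexes were read from the same fit. Of 48 assembly factors outside the rule, 3 passed (6.25%, against 20.4% of all genes, median -0.053). COX20, a chaperone of the mitochondrially encoded subunit 2 of complex IV, rose by 0.63 ± 0.13 (adjusted p = 0.0106). SCO2, which delivers copper to that subunit, fell by 0.81 (SE 0.14, adjusted p = 0.00625), and COA4 fell by 0.75 (SE 0.17, adjusted p = 0.0168). The adjusted p of COA4 was 0.0573 and 0.0574 without mock array 5 or 6 and 0.0647 and 0.0551 without array 4 or 5 labelled WTAP, and that of COX20 was 0.0982 after neighbour subtraction. Among 5 further complex genes outside the rule none passed, with CYC1, the cytochrome c1 of complex III, at 0.22 ± 0.11 (adjusted p = 0.195) and cytochrome c itself, CYCS, at -0.48 ± 0.29 (adjusted p = 0.288).

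Among 13 transcription and mitochondrial DNA regulators, 3 fell and none rose (23.1%, median -0.052), a share called near the 20.4% of all genes, of which 9.91% fell. They were the mitochondrial DNA helicase TWNK (-0.83 ± 0.14, adjusted p = 0.00596), the nuclear receptor ESRRA, an activator of respiratory genes (-0.57 ± 0.11, adjusted p = 0.00956), and the coactivator PPRC1 (-0.57 ± 0.16, adjusted p = 0.0385), which was named after its value was seen. TWNK and PPRC1 lie on chromosome 10, with neighbour medians of -0.45 and -0.43, and after neighbour subtraction TWNK stood at -0.39 (adjusted p = 0.108). ESRRA, on chromosome 11, had a neighbour median of -0.16.

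Of 18 genes of the tricarboxylic acid cycle and pyruvate dehydrogenase, 3 rose and 1 fell (22.2%, median 0.025), near the 20.4% of all genes. IDH2, the mitochondrial NADP-dependent isocitrate dehydrogenase, rose 2.17-fold (log2 fold change 1.12 ± 0.15, adjusted p = 0.00207), from 8.76, 8.84 and 8.41 in mock to 9.83, 9.91 and 9.63 in arrays labelled WTAP. SUCLA2, a subunit of succinyl-CoA synthetase, rose by 0.65 ± 0.10 (adjusted p = 0.00443), and IDH3B, a subunit of the NAD-dependent isocitrate dehydrogenase named after its value was seen, rose by 0.42 ± 0.11 (adjusted p = 0.0332). OGDH, of the oxoglutarate dehydrogenase complex, fell by 0.41 (adjusted p = 0.0493), with 0.0661, 0.123 and 0.134 without mock array 4, 5 or 6 and 0.0794, 0.0817 and 0.103 without array 4, 5 or 6 labelled WTAP. After neighbour subtraction SUCLA2 had an adjusted p of 0.0888, and with the array number as a block OGDH had 0.071.

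Of 19 genes of coenzyme Q synthesis and other electron donors, 2 rose and 3 fell (26.3%, against 20.4% of all genes, median -0.11). SQOR, which passes electrons from sulfide to coenzyme Q, fell by 0.81 (adjusted p = 0.00878), and PDSS1, which makes the coenzyme Q tail, fell by 0.85 (adjusted p = 0.0104). COQ10A, a coenzyme Q binding protein named after its value was seen, fell by 0.54 (adjusted p = 0.0136). COQ7, a hydroxylase of coenzyme Q synthesis, rose by 0.73 (adjusted p = 0.0461), and CHDH, choline dehydrogenase, by 0.56 (adjusted p = 0.0342). COQ7 had 0.135 and 0.121 without mock array 5 or 6 and 0.0884 and 0.0939 without array 4 or 6 labelled WTAP, and CHDH had 0.0838 and 0.107 without mock array 4 or 5 and 0.106 and 0.0775 without array 4 or 6 labelled WTAP. PDSS1 lies on chromosome 10 and stood at -0.16 after neighbour subtraction (adjusted p = 0.579).

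Of 78 genes taken as mitochondrial ribosomal proteins by the symbol start MRPL or MRPS, 3 rose and 6 fell (11.5%, against 20.4% of all genes, median -0.14). For 39 the groups did not overlap (50%, against 39.7% of all genes). The 78 include the pseudogene MRPL42P5 and the antisense RNA MRPL20-AS1, and neither passed. MRPS21 (0.64, adjusted p = 0.00648) and MRPS31 (0.63, adjusted p = 0.0175) were the largest rises, and MRPL1 (-0.65, adjusted p = 0.0132) and MRPL43 (-0.63, adjusted p = 0.00683) the largest falls. The third gene to rise was MRPL57 (0.55), named after its value was seen. Without mock array 5 or 6 the adjusted p of MRPS31 was 0.0603 or 0.0508. With the mean of its probes MRPL43 stood at -0.41 (adjusted p = 0.0524). None of MRPS21, MRPS31, MRPL1 and MRPL43 passed after neighbour subtraction (adjusted p = 0.084, 0.585, 0.172 and 0.367). None of 9 genes of adenine nucleotide and phosphate carriers, uncouplers and porins passed (median -0.10). The lists were compared by counts alone, and no difference between them was tested.

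**Figure D5:**
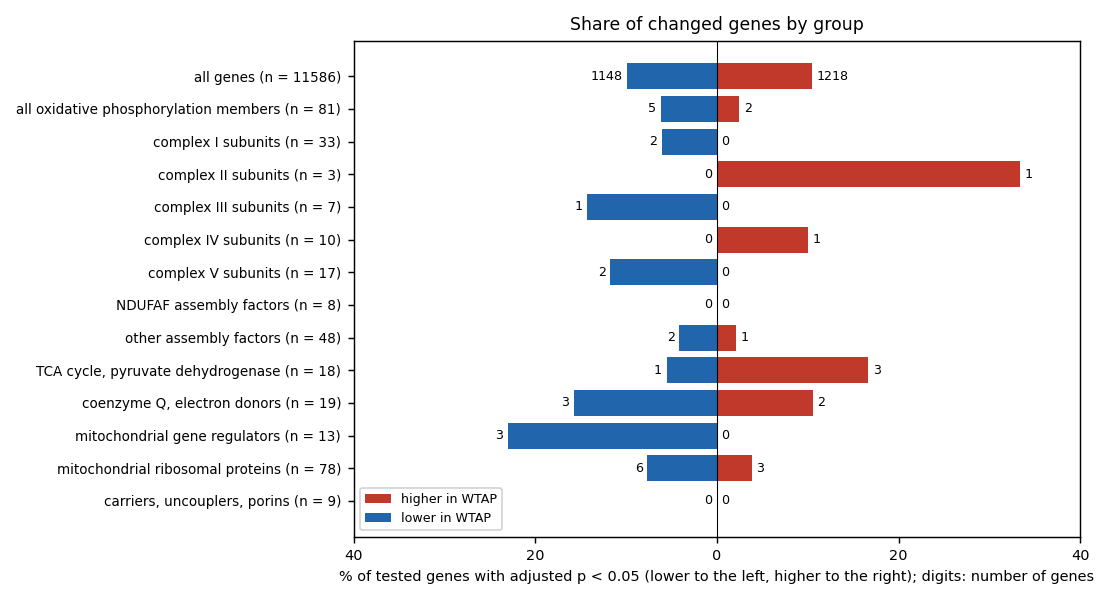
Bars give the percentage of tested genes in each group that were lower (blue, to the left) or higher (red, to the right) in arrays labelled WTAP, with the number of genes at the end of each bar. The 81 members (5 lower, 2 higher) have shorter bars than all 11586 genes (1148 lower, 1218 higher), and the bar of complex II rests on 1 of 3 genes.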

How the data were processed

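RNA of 3 mock and 3 WTAP-labelled HuCCT1 samples was measured on Illumina bead arrays. The deposited values used were linear probe intensities before normalization, each with a detection p-value, per the file headers. A further table, of intensities the authors had processed, served as an alternative. The submitters' processing notes name BeadStudio 3.3; its background treatment is not stated in them. The number of arrays limits the precision.

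Here intensities were background-corrected (normexp, negative controls inferred from the detection p-values, offset 16), quantile-normalized and put on the log2 scale in limma 3.58.1 (R 4.3.3). Probes detected (p under 0.05) on 3 or more arrays were kept, and the probe with the highest mean stood for each gene. Genes were named from the platform table with RefSeq updates. lmFit and eBayes compared the groups over all 11586 genes, with Benjamini-Hochberg adjustment. The same fit was also run on simulated data, with means and spreads taken from the real values. Gene order came from RefSeq (GRCh38.p14), with 25 tested genes on each side as neighbours.

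The members, lists and alternatives were chosen with earlier results of these data known. Named were all members past the threshold, the highest and lowest of each complex, the SDH genes, the tissue isoforms, up to 2 higher and 2 lower genes of each other list, and WTAP; further members were named as examples after their values were seen. Same-numbered mock and WTAP-labelled arrays deviated together (correlations 0.121 to 0.227, against -0.195 to 0.018 for other numbers). The labels do not say what the numbers mark. The reported fit did not pair the arrays by number, and only the alternative with the array number as a block did so.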

Additional observations from a re-analysis of the deposited data

How the results depend on the processing

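In all, 16 alternatives were run. The number of members past the threshold was 2 higher and 5 lower as reported. The number higher was 1 with median scaling, 1 without the filter on dim probes, 1 with the replicate block, 0 after subtraction of neighbouring genes and 4 with trend and robust eBayes. The number lower was 8 without background correction, 8 in the authors' processed table, 9 with trend and robust eBayes and 2 after subtraction of neighbouring genes. Leaving out 1 array at a time gave 1 to 2 higher and 1 to 6 lower, with member medians of -0.057 to -0.012 and 1345 to 2245 genes called in all, against 2366. Median scaling moved the members' median to -0.073 and that of all genes to -0.032. Without the filter 1979 of 19432 genes passed, and after subtraction of neighbours 1636. Among the named genes past the threshold, the sign turned once, for NDUFB8 after subtraction of neighbours (0.12, adjusted p = 0.496). Named members that did not pass, such as SDHD, COX8A and NDUFB9, also changed sign in some alternatives. NDUFB9 went from 0.25 to -0.02 after subtraction of neighbours. The members' share past the threshold was below that of all genes in each of the 16 alternatives. With the replicate block, COX5A (adjusted p = 0.0592) and NDUFB8 (0.0505) no longer passed, NDUFAF4 (0.0135) did, and the calls of the other 5 members held. Of the members that did not pass, 9 passed in at least 1 alternative, and 65 of the 81 passed in none of the settings. Causes of these shifts were not tested. The dim members NDUFB1, NDUFAF4 and UQCRB had standard errors of 0.25, 0.23 and 0.20, against a median of 0.11 over the members, so small changes of dim genes were not detectable here.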
